A study of Homo sapiens with 12 samples.

Results

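The expression of 36 genes of fatty acid synthesis, activation, mitochondrial and peroxisomal oxidation, storage and uptake was examined in 2 hepatocellular carcinoma cell lines in which EGR1 had been altered. The genes were taken by name from a table of 22963 gene names, and all 36 were present. They comprised 10 genes of synthesis, 4 of fatty acid activation, 15 of oxidation, 4 of triglyceride storage and its release, 2 of uptake and binding, and the regulator PPARA. Together they held between 0.332% and 0.5% of the summed expression of a library. Expression is given as FPKM, the fragments assigned to a gene per length of its transcript and per number of mapped fragments.

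PLC/PRF5 cells, a human hepatoma line, carried either the empty lentiviral vector (vector) or the same vector with the EGR1 coding sequence in the cloning site behind its CMV promoter (EGR1), and the vector cells are labelled WT. MHCC97H cells, a second human hepatocellular carcinoma line, were either parental and labelled WT (parental) or labelled EGR1 knockout. The knockout lines of the study were made with CRISPR/Cas9 as single clones, so the libraries labelled knockout stand for clonal cells, and the clone that was sequenced is not given in the sources used here. Every group had 3 libraries labelled as biological replicates, and nothing in the labels says whether they came from separate cultures, so the p-values measure the spread between these libraries. All cells were grown in the same medium.

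Fatty acids are built in the cytosol from citrate. ACLY cleaves citrate to acetyl-CoA, ACACA and ACACB make malonyl-CoA, FASN assembles palmitate, and elongases and desaturases such as ELOVL6, SCD and FADS2 lengthen and desaturate the chain. For oxidation, a fatty acid is joined to coenzyme A by an acyl-CoA synthetase and passes into mitochondria through CPT1A, SLC25A20 and CPT2. There it is shortened by acyl-CoA dehydrogenases, hydratases, hydroxyacyl-CoA dehydrogenases and thiolases. Liver cells do both, and store what is left as triglyceride in lipid droplets. EGR1 is a zinc finger transcription factor induced by growth signals, and SREBF1 encodes the factor best known for driving the synthesis genes.

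The promoters of the genes that moved in both cell lines are shown first, because these genes are where the comparisons below meet. They are the 300 bases from 250 before to 50 after the RefSeq start of the gene on GRCh38.p14, read on the strand of the gene. PNPLA2, the lipase that opens triglyceride breakdown, lies at chr11:818664-818963 on the plus strand. SLC25A20, the carnitine carrier of the inner mitochondrial membrane, lies at chr3:48898833-48899132 on the minus strand. ACSL5, an acyl-CoA synthetase, lies at chr10:112375018-112375317 on the plus strand, and ACADS, the short-chain acyl-CoA dehydrogenase, at chr12:120725576-120725875 on the plus strand. SCD, the stearoyl-CoA desaturase, at chr10:100346983-100347282 on the plus strand, was added after its values were seen, because it carried a match to the EGR1 motif. SCD was not called in MHCC97H cells, and ACADS was called there only before a correction for GC content and length. Capitals mark a match to the EGR1 motif GCGNGGGCG or to the SREBP motif TCACNCCAC on either strand.
PNPLA2: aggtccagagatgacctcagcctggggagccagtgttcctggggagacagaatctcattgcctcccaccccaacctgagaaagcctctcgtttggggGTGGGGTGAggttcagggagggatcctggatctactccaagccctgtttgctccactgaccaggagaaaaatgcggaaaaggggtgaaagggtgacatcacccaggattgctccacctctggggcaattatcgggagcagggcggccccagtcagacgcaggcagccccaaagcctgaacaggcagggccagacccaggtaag
SLC25A20: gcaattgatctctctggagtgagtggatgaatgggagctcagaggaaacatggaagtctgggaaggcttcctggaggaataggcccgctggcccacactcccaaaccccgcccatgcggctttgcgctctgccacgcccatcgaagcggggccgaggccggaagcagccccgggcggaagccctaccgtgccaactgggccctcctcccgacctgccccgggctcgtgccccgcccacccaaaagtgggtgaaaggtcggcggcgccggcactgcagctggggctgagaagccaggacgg
ACSL5: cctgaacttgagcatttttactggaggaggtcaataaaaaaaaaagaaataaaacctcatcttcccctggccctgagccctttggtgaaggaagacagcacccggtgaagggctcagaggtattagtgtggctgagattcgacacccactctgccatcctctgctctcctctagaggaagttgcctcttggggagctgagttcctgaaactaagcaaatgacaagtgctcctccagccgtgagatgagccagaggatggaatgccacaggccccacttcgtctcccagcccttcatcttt
ACADS: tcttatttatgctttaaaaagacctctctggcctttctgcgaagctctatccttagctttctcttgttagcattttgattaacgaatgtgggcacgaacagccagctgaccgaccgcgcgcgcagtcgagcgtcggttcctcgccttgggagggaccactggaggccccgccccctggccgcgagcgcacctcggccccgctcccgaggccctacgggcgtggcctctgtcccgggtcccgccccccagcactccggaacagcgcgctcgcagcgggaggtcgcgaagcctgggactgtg
SCD: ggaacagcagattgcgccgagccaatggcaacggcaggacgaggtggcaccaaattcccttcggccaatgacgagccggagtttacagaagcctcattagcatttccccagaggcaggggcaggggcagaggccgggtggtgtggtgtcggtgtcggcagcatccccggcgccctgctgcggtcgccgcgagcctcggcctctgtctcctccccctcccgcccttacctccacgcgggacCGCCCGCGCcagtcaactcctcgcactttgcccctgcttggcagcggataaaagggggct

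The match in SCD lay on the minus strand, 10 bases before the start, and overlapped a GC box (GGGCGG). The other 4 promoters held 0 matches to the EGR1 motif. Of the genes called in both cell lines but not shown, ECHS1 had 2 matches, ACADM had 0 and FASN had no entry. The match to the SREBP motif in PNPLA2 lay 153 bases before the start, on the minus strand. Of the 36 genes, 31 had a promoter in the RefSeq table, and FASN, EHHADH, ACAA1, DGAT1 and DGAT2 had no entry. The EGR1 motif was found in 7 of the 31 promoters (22.6%), those of SCD, ACSL1, ACSL3, ACSL4, HADH, ECHS1 and PPARA, against 9.28% of 27305 promoters of the same length. By role these were 1 of 9 synthesis genes, 3 of 4 activation genes, 2 of 13 oxidation genes and PPARA. With EGR1 overexpression and values as deposited, SCD, HADH and ECHS1 were called below, and ACSL1, ACSL3, ACSL4 and PPARA were not. The GC box was found in 71.0% of the 31 promoters and in 44.6% of all. The SREBP motif was found in 1 of the 31 and in 1.15% of all. A match is a description of the letters and not evidence of binding.

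EGR1 itself had an FPKM of 1.97, 1.43 and 2.03 in the vector libraries and 56.3, 50.2 and 52.2 in the EGR1 libraries. In MHCC97H cells it was 20.2, 23.1 and 21.2 in parental cells and 35.2, 50.3 and 32.9 in the libraries labelled knockout. The EGR1 transcript was thus at a higher level with the knockout label than without it (a log2 change of 0.83, limma adjusted p = 0.00126). The study reports that its knockout clones were checked by western blot and DNA sequencing, and protein was not measured in these libraries. The transcript level by itself therefore neither bears out nor contradicts the label, and every direction given below for MHCC97H is that of the label. Hepatocyte markers were unequal between the lines, with 8 of 9 averaging an FPKM of 1 or more in the vector and EGR1 libraries against 4 of 9 in parental cells and 5 of 9 in those labelled knockout. The summed marker FPKM was 3914 to 4186 in vector, 4723 to 5967 in EGR1, 1457 to 1840 in parental and 2231 to 2663 in the libraries labelled knockout. TTR was near 0 in every group, and ALB had a mean FPKM of 116 in vector, 201 in EGR1, 0.885 in parental and 15.2 in the libraries labelled knockout. The markers did not move one way in MHCC97H cells. APOB had a mean of 1.27 in parental cells and 0.15 in those labelled knockout, and HNF4A 9.64 and 7.91. Most of the sum there was the keratins KRT8 (1102 and 1775) and KRT18 (517 and 635). Of the 4 markers tested there, 3 were called higher and 0 lower, or 2 and 1 after a correction for GC content and length. Of 10 stromal, endothelial and blood cell markers, 1 reached a mean FPKM of 1 in both PLC/PRF5 groups, 2 in parental and 3 in the libraries labelled knockout, with sums of 2.65 to 4.3 in PLC/PRF5 and 26.5 to 36.2 in MHCC97H, most of it CD79A, while the leukocyte marker PTPRC had means between 0 and 0.0391. In bulk RNA, fewer cells with a transcript and less of it per cell cannot be told apart.

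**Figure D1:**
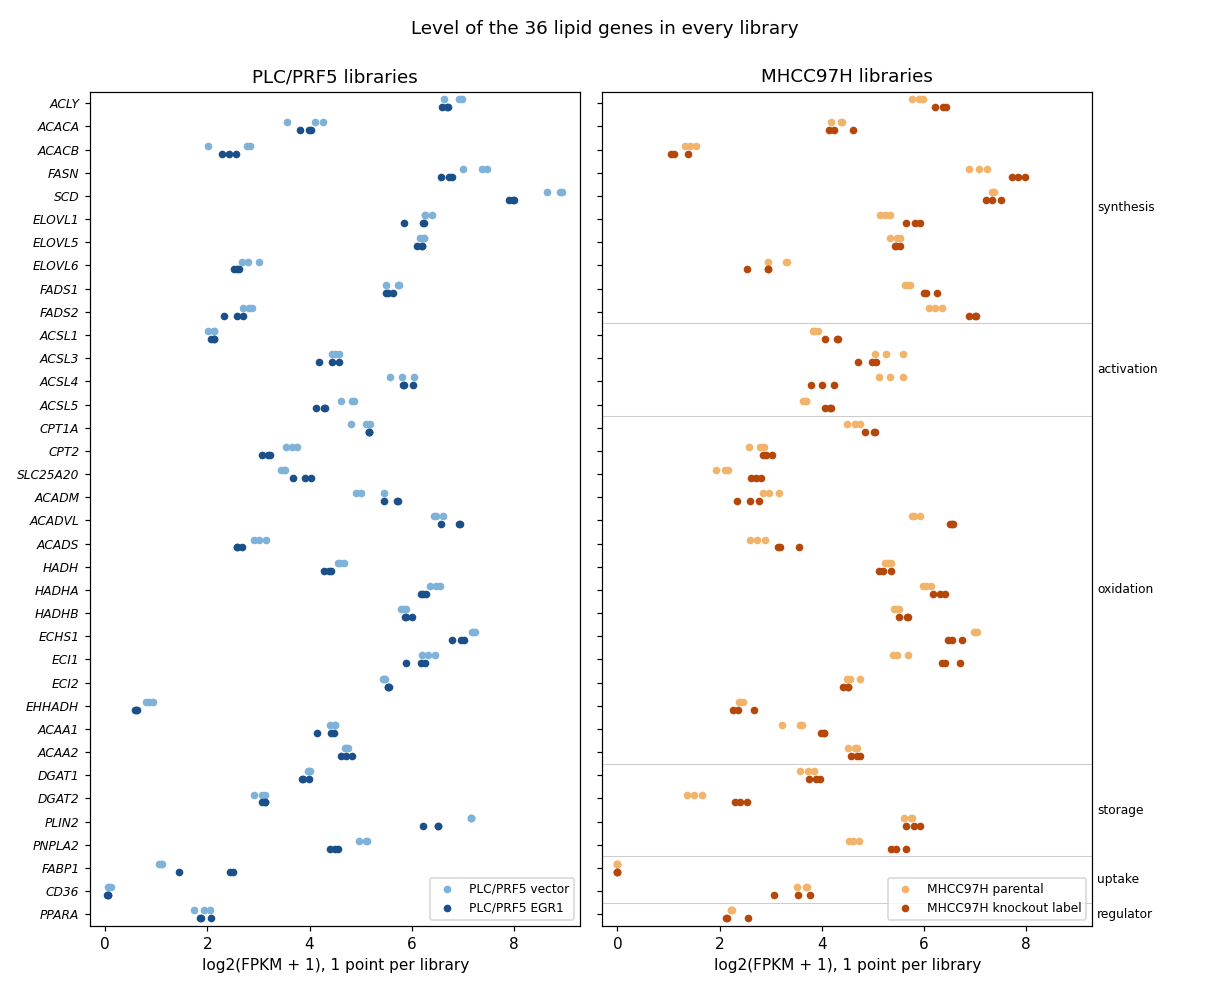
Level of the 36 genes in every library. The x axis is log2(FPKM + 1), each point is 1 library, and the panels separate PLC/PRF5 cells (vector pale, EGR1 dark) from MHCC97H cells (parental pale, libraries labelled knockout dark). SCD is the highest of the genes in PLC/PRF5 cells and falls from the vector to the EGR1 libraries, whereas FADS2, CD36 and EHHADH sit far higher in MHCC97H than in PLC/PRF5 cells.

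With EGR1 overexpression in PLC/PRF5 cells, the genes that fell were SCD, FASN, PLIN2, PNPLA2, ACSL5, CPT2, ACADS, ECHS1 and HADH, and those that rose were FABP1, ACADM and SLC25A20. Each gene was tested with limma on log2(FPKM + 1) over the genes whose FPKM averaged 1 or more in the 6 libraries, and called at a 2-sided adjusted p under 0.05. Of the 36 genes 34 passed the expression filter, 12 were called, 3 of them higher and 9 lower, and 22 were not called. Of all 11671 genes tested, 29.6% were called, 19.2% higher and 10.4% lower. The median log2 change was -0.11 over the 34 genes and 0.09 over all genes tested. The share of the 34 genes called was 35.3%, near that of all genes, and the lower calls outnumbered the higher ones among them. Among all genes the higher calls outnumbered the lower (2240 against 1217), but this turned with quantile normalization (1506 against 1767) and with a correction for transcript GC content and length (1823 against 1935).

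Of the 10 synthesis genes, 2 fell, 0 rose and 8 were not called, and the sign of the change was negative for all 10 (median -0.19). The signs come from the same 6 libraries and are not independent, and the share of all genes with a negative sign was not counted. SCD, the desaturase that makes oleate from stearate (chromosome 10, 100347124 to 100364834, plus strand), had an FPKM of 490, 399 and 480 in the vector libraries and 253, 240 and 254 in the EGR1 libraries. The groups did not overlap, and the lowest vector library was still far above the highest EGR1 library. The log2 change was -0.87 ± 0.11 (SE, limma adjusted p = 0.00104), a fold of 0.549. FASN, the fatty acid synthase (chromosome 17, 82078333 to 82098332, minus strand), had an FPKM of 176, 128 and 166 with the vector and 110, 94.6 and 105 with EGR1. Again the groups did not overlap, although the second vector library lay closest to the EGR1 libraries. FASN fell by 0.59 on the log2 scale (SE 0.13, limma adjusted p = 0.0103). The second vector library was also the lowest of its group for ACLY (125, 97.9 and 121), ACACA (18.1, 10.8 and 16.3) and ACACB (5.86, 3.04 and 6.16). None of these 3 was called, with log2 changes of -0.18, -0.03 and -0.12.

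Of the activation genes, ACSL5 fell and the other 3 were not called. ACSL5, an acyl-CoA synthetase found on mitochondria and endoplasmic reticulum, had an FPKM of 28.2, 23.4 and 27.5 with the vector and 16.5, 18.6 and 18.4 with EGR1, with no overlap. The log2 change was -0.54 ± 0.10 (SE, limma adjusted p = 0.00508). ACSL1, ACSL3 and ACSL4 had log2 changes of 0.02, -0.10 and 0.10.

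The oxidation genes did not move one way. Of the 14 tested, 2 rose, 4 fell and 8 were not called, with a median of -0.06. CPT2, which releases the acyl group from carnitine inside the mitochondrion, had an FPKM of 12.4, 10.6 and 11.6 with the vector and 8.11, 7.33 and 8.37 with EGR1, a log2 change of -0.49 ± 0.10 (SE, limma adjusted p = 0.00683). SLC25A20, the carrier that acts just before CPT2, went the other way, with an FPKM of 10.3, 10.5 and 9.91 against 11.7, 14 and 15.3. Its log2 change was 0.37 ± 0.11 (SE, limma adjusted p = 0.0287). So the entry of acylcarnitine held 1 gene that rose beside 1 that fell, and CPT1A, the outer membrane enzyme, was not called (0.13, limma adjusted p = 0.385).

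The acyl-CoA dehydrogenases among the members also did not move one way, and a relation to chain length was not tested. ACADM, for medium chains, had an FPKM of 29, 43 and 31.2 with the vector and 43, 52.1 and 51.1 with EGR1, where the highest vector library came close to the lowest EGR1 library, and its log2 change was 0.51 ± 0.15 (SE, limma adjusted p = 0.0315). ACADS, for short chains, had an FPKM of 7, 7.88 and 6.55 against 4.97, 5.43 and 4.97, a log2 change of -0.41 ± 0.10 (SE, limma adjusted p = 0.0158). ACADVL, for very long chains, was not called (0.30, limma adjusted p = 0.0824). ECHS1, the mitochondrial enoyl-CoA hydratase, had an FPKM of 146, 150 and 145 against 110, 124 and 129. It fell by 0.28 on the log2 scale (SE 0.09, limma adjusted p = 0.0461). HADH, the hydroxyacyl-CoA dehydrogenase for short and medium chains, fell by 0.25 (SE 0.08, limma adjusted p = 0.0497).

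Most of these oxidation calls ended when 1 library was left out, while their log2 changes kept their sign. Where the call ended, the log2 change was 0.30 to 0.38 for SLC25A20 and 0.40 to 0.47 for ACADM. It was -0.33 to -0.26 for ECHS1 and -0.28 to -0.22 for HADH. Over all genes, 3457 were called with the 6 libraries and 1919 to 4007 with 1 left out. Leaving out any of vector replicate 1, vector replicate 3, EGR1 replicate 2 or EGR1 replicate 3 ended the calls of SLC25A20 (limma adjusted p from 0.0625 to 0.115) and ACADM (0.0908 to 0.107). ACADS lost its call without EGR1 replicate 3 (0.062). ECHS1 lost it without any library but EGR1 replicate 1 (0.066 to 0.115), and HADH without any but vector replicate 2 (0.0645 to 0.175). CPT2, SCD, FASN, ACSL5, PLIN2 and PNPLA2 kept their calls whichever library was left out. SLC25A20 also lost its call with quantile normalization (0.0829), and without the expression filter SLC25A20, ACADM and ECHS1 lost theirs. EHHADH, a peroxisomal enzyme, was under the expression filter in these libraries and was not tested; its FPKM was 0.742, 0.905 and 0.812 with the vector and 0.537, 0.507 and 0.493 with EGR1, without overlap.

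Of the 4 storage genes, PLIN2 and PNPLA2 fell and DGAT1 and DGAT2 were not called (-0.08 and 0.07). PLIN2, the perilipin that coats lipid droplets (chromosome 9, 19108375 to 19149290, minus strand), had an FPKM of 142 in each of the 3 vector libraries and 74, 90.3 and 89.9 with EGR1. Its log2 change was -0.74 ± 0.10 (SE, limma adjusted p = 0.00142). PNPLA2 had an FPKM of 34, 33.4 and 30.4 with the vector and 22.6, 20 and 21.6 with EGR1, a log2 change of -0.59 ± 0.09 (SE, limma adjusted p = 0.00226). The transcripts of a droplet coat protein and of a droplet lipase were therefore both lower, while those of the acyltransferases that complete triglyceride were not called.

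FABP1, the liver fatty acid binding protein, had an FPKM of 1.12, 1.15 and 1.07 with the vector and 1.73, 4.41 and 4.65 with EGR1. All 3 EGR1 libraries were above the vector libraries, but EGR1 replicate 1 was far below the other two. The log2 change was 1.05 ± 0.25 (SE, limma adjusted p = 0.0138), and it was the only call of at least 2-fold among the 12. Without EGR1 replicate 2 the log2 change was 0.89 (limma adjusted p = 0.0507), and without the expression filter the adjusted p was 0.0583. The summed hepatocyte markers were also lowest in EGR1 replicate 1 of that group, with 4723 in EGR1 replicate 1, 5967 in replicate 2 and 5945 in replicate 3, and their part in the FABP1 result was not tested. CD36, a membrane receptor that takes up fatty acids, was under the filter with a mean FPKM of 0.0541 and 0.0349. PPARA, the nuclear receptor that drives oxidation genes in liver, was not called (0.02, limma adjusted p = 0.923).

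**Figure D2:**
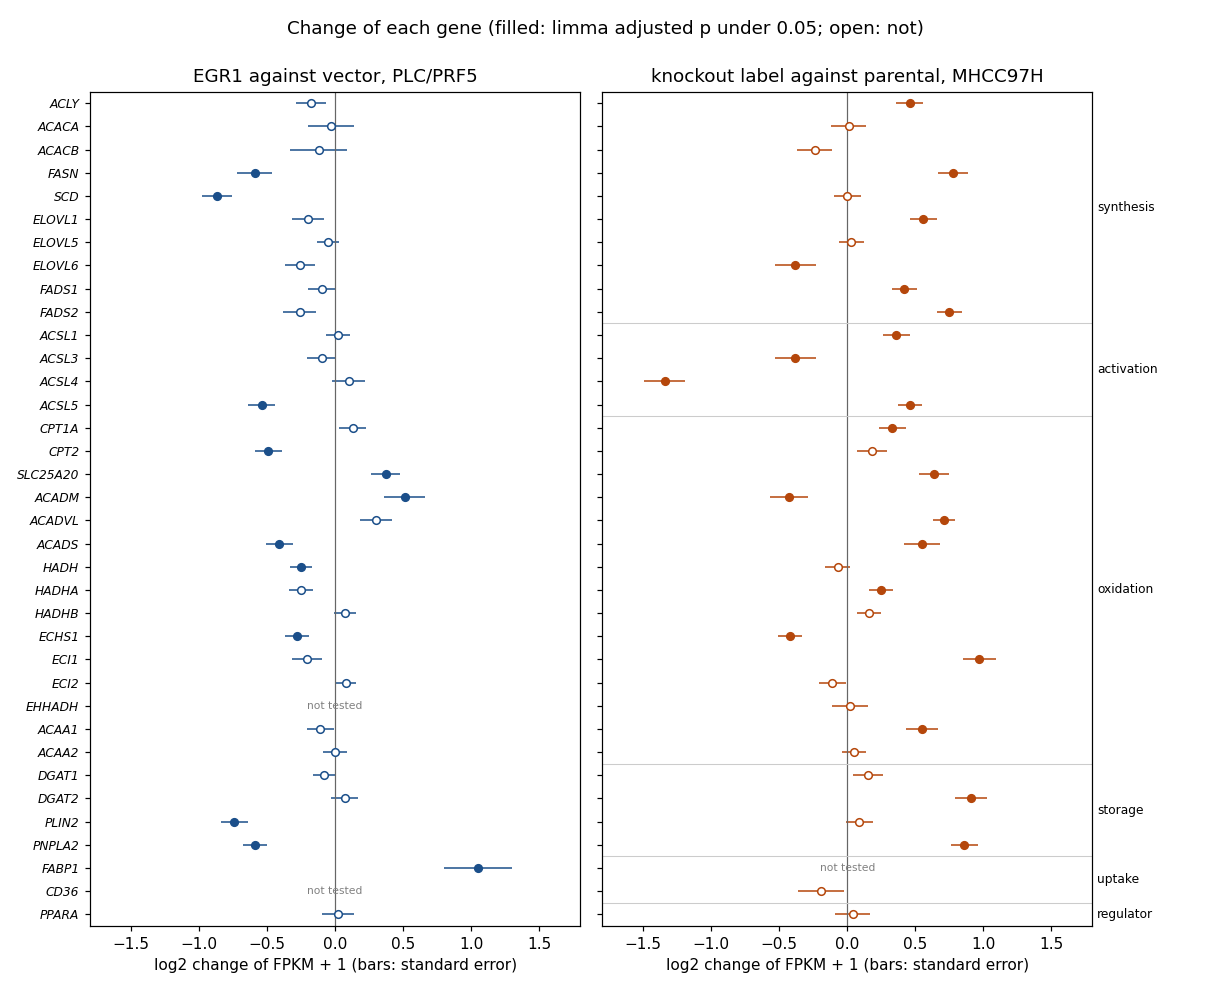
Log2 change of FPKM + 1 for each of the 36 genes with EGR1 overexpression in PLC/PRF5 cells and with the knockout label in MHCC97H cells. Bars are standard errors of the limma fit, filled points passed an adjusted p under 0.05 and open points did not. The synthesis genes lie to the left of 0 in PLC/PRF5 cells, and most genes from FASN to PNPLA2 lie to the right of 0 in MHCC97H cells, with ACSL4 farthest to the left.

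In MHCC97H cells, FASN, FADS2, ELOVL1, ACLY and FADS1 of the synthesis genes, ECI1, ACADVL and SLC25A20 of the oxidation genes and DGAT2 and PNPLA2 of the storage genes were among those higher in the libraries labelled knockout, and ACSL4 was the most strongly lower. Of the 36 genes 35 passed the filter, 21 were called, 16 higher and 5 lower, and 14 were not called. Of all 11577 genes tested 66.3% were called, 34.8% higher and 31.5% lower. The share among the 35 genes, 60%, was near that of all genes. The median log2 change was 0.16 over the 35 genes and 0.02 over all.

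These changes followed the base composition of the transcripts. Across 10806 genes with a GENCODE release 29 transcript, GC content and length together accounted for 54.3% of the variance of the log2 changes between the libraries labelled knockout and parental, and Spearman's rho between GC content and log2 change was 0.77. Over the tested members rho was 0.70. In the PLC/PRF5 comparison the corresponding values were 18.5%, -0.45 and -0.36. These correlations run across genes of the same libraries and are given as descriptions. A spline on GC content and length was therefore removed from each library, and values after this correction are given beside the MHCC97H results that follow. A biological change that runs with GC content is removed as well. After it, 46.7% of all genes were called in MHCC97H and 34.7% in PLC/PRF5. Of the 21 calls, 14 remained in the same direction, 7 were lost (ELOVL1, ELOVL6, ACSL3, ACADM, ACADS, HADHA and ACAA1), and 5 other members (ACACB, ELOVL5, HADH, EHHADH and DGAT1) passed only after it. In PLC/PRF5 all 12 calls remained in the same direction, and 6 members passed only after it: ELOVL5, ELOVL6, ACSL3, ACSL4 and HADHA were lower and ACADVL was higher. ACSL4 had a log2 change of 0.10 before the correction and -0.29 after it.

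Of the 10 synthesis genes, 5 were higher, 1 lower and 4 not called in the libraries labelled knockout (median 0.23). After the correction the counts were again 5 higher and 1 lower, with a median of 0.17, but the genes were partly others. FASN had an FPKM of 118, 135 and 150 in parental cells and 252, 211 and 229 in those labelled knockout, with no overlap. Its log2 change was 0.78 ± 0.11 (SE, limma adjusted p = 0.000368) and 0.26 after the correction (limma adjusted p = 0.00502). FADS2, the delta-6 desaturase, had an FPKM of 67.5, 73.3 and 80.9 against 129, 117 and 128, a log2 change of 0.75 ± 0.09 (SE, limma adjusted p = 0.000188) and 0.20 after the correction (limma adjusted p = 0.00857). ACLY (0.46, corrected 0.27) and FADS1 (0.42, corrected 0.34) also rose. ELOVL1, an elongase for very long chains, went from 0.56 to 0.05 with the correction. ELOVL6 was called lower at -0.38 (limma adjusted p = 0.0472), lost the call without parental replicate 1 or 2 or knockout replicate 1 or 3 (0.0534 to 0.153), and was 0.13 after the correction. SCD, which fell in PLC/PRF5 cells, had an FPKM of 160, 162 and 166 in parental cells and 182, 147 and 161 in those labelled knockout, a log2 change of 0.00 ± 0.10 (SE), or 0.11 after the correction, neither called.

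The 4 acyl-CoA synthetases were all called, 2 in each direction. ACSL4, which prefers arachidonate and related polyunsaturated fatty acids, had an FPKM of 47.2, 39.2 and 33.8 in parental cells and 15, 17.9 and 12.8 in those labelled knockout. The groups were well apart, and the log2 change was -1.34 ± 0.15 (SE, limma adjusted p = 0.000103), or -0.65 after the correction (limma adjusted p = 8.34e-05). ACSL4 has the lowest GC content of the 36 transcripts, 37.4%. ACSL5 had an FPKM of 12, 11.4 and 11.9 against 17, 15.8 and 17.1, a log2 change of 0.46 ± 0.09 (SE, limma adjusted p = 0.00158) and 0.66 after the correction. ACSL1, the main synthetase of liver, rose from 13.3, 14.2 and 13.5 to 18.9, 15.8 and 18.7 (0.36 ± 0.10, SE, limma adjusted p = 0.0102, corrected 0.56). ACSL1 and ACSL5 were the called members whose increase was larger after the correction. ACSL3, called lower at -0.38 (limma adjusted p = 0.0448), overlapped between the groups, lost the call without any library but parental replicate 2 (0.0524 to 0.152), and was 0.28 after the correction.

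Of the 15 oxidation genes, 7 were higher, 2 lower and 6 not called (median 0.18), and after the correction 5 were higher and 2 lower (median 0.15). ECI1, an isomerase for unsaturated fatty acids, had an FPKM of 41.2, 43.2 and 50.6 in parental cells and 83.8, 80.7 and 103 in those labelled knockout. Its log2 change was 0.97 ± 0.12 (SE, limma adjusted p = 0.000173), or 0.26 after the correction (limma adjusted p = 0.013). ACADVL had an FPKM of 53.7, 55.2 and 60 against 90.9, 94.2 and 93.4, a log2 change of 0.71 ± 0.08 (SE, limma adjusted p = 0.000119), or 0.15 after the correction (limma adjusted p = 0.0406). SLC25A20 had an FPKM of 2.82, 3.29 and 3.46 against 5.52, 5.09 and 6.05, a log2 change of 0.64 ± 0.11 (SE, limma adjusted p = 0.00108), or 0.37 after the correction (limma adjusted p = 0.00728). All 3 were called in the same direction after the correction, at a smaller size, but ACADVL was not when the replicate number was added to it as a block (0.15, limma adjusted p = 0.0579).

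ECHS1 fell in MHCC97H cells, from 125, 127 and 131 to 92.4, 87.4 and 107 (-0.42 ± 0.09, SE, limma adjusted p = 0.0038). It ran against the GC trend, since its transcript has a GC content of 60.3%, and its log2 change after the correction was -1.10 (limma adjusted p = 1.48e-05). ACADS had an FPKM of 5.03, 6.4 and 5.67 against 7.86, 8.05 and 10.7, called at 0.55 ± 0.13 (SE, limma adjusted p = 0.00595) but at -0.19 and not called after the correction (limma adjusted p = 0.156). ACADM had an FPKM of 8, 6.85 and 6.2 against 5.02, 5.83 and 4.07. It was called at -0.43 ± 0.14 (SE, limma adjusted p = 0.0211), lost the call without parental replicate 1 or 2 or knockout replicate 1 or 3 (0.0507 to 0.0794), and was -0.03 after the correction. CPT1A (0.33, corrected 0.24) was called, but not without parental replicate 1 or knockout replicate 1 or 3 (0.0515 to 0.0585). HADHA, the alpha subunit of the trifunctional protein, was called at 0.25, but not without parental replicate 1 or 2 or knockout replicate 1 or 3 (0.0814 to 0.113), and was -0.02 with quantile normalization and 0.16 and not called after the correction (limma adjusted p = 0.0718). Its partner HADHB was not called (0.16, limma adjusted p = 0.129, corrected 0.16).

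Of the storage genes, DGAT2 and PNPLA2 rose and DGAT1 (0.15) and PLIN2 (0.09, corrected -0.06) were not called. DGAT2, an acyltransferase that makes triglyceride, had an FPKM of 1.58, 2.15 and 1.84 in parental cells and 4.28, 3.96 and 4.82 in those labelled knockout, a log2 change of 0.91 ± 0.12 (SE, limma adjusted p = 0.00027), or 0.46 after the correction (limma adjusted p = 0.00586). PNPLA2 had an FPKM of 22.3, 23.5 and 25.7 against 42.8, 40 and 49.4, a log2 change of 0.86 ± 0.10 (SE, limma adjusted p = 0.00016), or 0.17 after the correction (limma adjusted p = 0.0461), a call that the correction with the replicate block did not give (0.0502). DGAT1 was lower after the correction only (-0.45, limma adjusted p = 0.000825). FABP1 was listed at 0 in all 6 MHCC97H libraries, so no fold can be given. CD36 had an FPKM of 12.2, 12 and 10.4 against 10.6, 12.7 and 7.38 and was not called (-0.19, limma adjusted p = 0.341, corrected 0.22). PPARA was not called either (0.04, limma adjusted p = 0.795, corrected 0.21).

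Of the 33 genes tested in both comparisons, 7 were called in both: FASN, ACSL5, ACADS and PNPLA2 were lower with EGR1 and higher with the knockout label, ACADM was the reverse, SLC25A20 was higher in both and ECHS1 was lower in both. Beyond these 7, 4 were called with EGR1 overexpression only, 14 with the knockout label only and 8 in neither. After the GC and length correction ACADS and ACADM were not called in MHCC97H cells. Of all genes tested, 29.6% were called with EGR1 and 66.3% with the knockout label. The share of all genes called in both was not counted, so 7 of 33 is not read as a result about these genes. Over all genes, Spearman's rho of GC content and log2 change was -0.45 with EGR1 and 0.77 with the knockout label. Because a call in only one cell line does not show a difference, the change with EGR1 minus the change with the knockout label was tested over all 12 libraries. Of the 36 genes, 3 were called higher and 17 lower in this difference, against 63.8% of 12090 genes called, 33.4% higher and 30.4% lower. The share of the 36 called was 55.6%, and their median was -0.28 against 0.03 over all genes.

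Among the members, the largest differences were those of PNPLA2 (-1.44 ± 0.13, SE, limma adjusted p = 4.33e-06, corrected -0.67) and ACSL4 (1.43 ± 0.21, SE, limma adjusted p = 0.000112, corrected 0.40). FASN (-1.37, corrected -0.87), ECI1 (-1.18, corrected -0.42), FABP1 (1.05, corrected 1.05, all of it from PLC/PRF5 cells), FADS2 (-1.01, corrected -0.43) and ACSL5 (fold 0.5, corrected log2 value -1.28) followed, and each was called before and after the correction. SCD (-0.86, limma adjusted p = 0.000201, corrected -1.05) and PLIN2 (-0.83, limma adjusted p = 0.000213, corrected -0.68) differed as well, although neither was called in MHCC97H cells. CPT2 (-0.66, limma adjusted p = 0.00133, corrected -0.45) was in the same position. ACADS (-0.96) was called in this difference but was -0.13 and not called after the correction (limma adjusted p = 0.399). SLC25A20 (-0.27, limma adjusted p = 0.126) and ECHS1 (0.14, limma adjusted p = 0.338), which moved the same way in both lines, were not called in it, but ECHS1 was after the correction (0.86, limma adjusted p = 2.44e-06). ACSL1 (-0.34) lost its call when any of 6 libraries was left out (vector replicates 1 and 3, EGR1 replicate 3, parental replicate 1, knockout replicates 1 and 3; limma adjusted p from 0.0572 to 0.0659), and ACADVL (-0.41) without parental replicate 1 (0.0505) and after the correction (0.16, limma adjusted p = 0.188).

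To compare synthesis with oxidation, the mean log2(FPKM + 1) of the 15 oxidation genes was subtracted from that of the 10 synthesis genes in each library. This difference of levels was 0.58, 0.29 and 0.56 in the vector libraries and 0.30, 0.20 and 0.29 in the EGR1 libraries. The group means were 0.48 ± 0.16 and 0.26 ± 0.06 (SD, n = 3), and the difference of -0.21 compared with a pooled SD of 0.12. The groups overlapped, because the second vector library, lowest of its group for ACLY, ACACA and FASN, fell among the EGR1 libraries. Without it the difference was -0.31, and without any other single library it was -0.16 to -0.23. In MHCC97H cells the values were 0.79, 0.84 and 0.83 for parental and 0.96, 0.81 and 0.73 for the libraries labelled knockout, with means of 0.82 ± 0.03 and 0.83 ± 0.12 (SD, n = 3), a difference of 0.01 that was far below the spread. Without knockout replicate 1 it was -0.05, without knockout replicate 3 it was 0.07, and after the GC and length correction it was 0.10. Both sets had a median GC content near that of all genes, 51.2% for synthesis, 50.8% for oxidation and 48.7% for all.

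Summed FPKM, where the abundant genes weigh most, gave a larger contrast in PLC/PRF5 cells. The libraries underwent a nuclease treatment that lowers abundant transcripts, and its effect on these sums was not tested. The 10 synthesis genes summed to 1032, 846 and 1005 in the vector libraries and to 653, 658 and 688 in the EGR1 libraries, whereas the 15 oxidation genes summed to 667, 684 and 657 and to 599, 684 and 684. The log2 ratio of these sums was 0.63, 0.31 and 0.61 with the vector and 0.13, -0.05 and 0.01 with EGR1, without overlap. SCD carried much of it: with SCD left out the log2 ratio of the sums was -0.30, -0.61 and -0.32 with the vector and -0.58, -0.71 and -0.66 with EGR1, and the groups overlapped through the second vector library. In MHCC97H cells the log2 ratio was 0.23, 0.30 and 0.31 for parental and 0.63, 0.46 and 0.39 for the libraries labelled knockout, without overlap. The largest rises among the synthesis genes there were those of FASN (mean FPKM 134 and 231) and FADS2 (73.9 and 125). Their transcripts have a GC content of 65.3% and 60.7%, and their log2 changes were smaller after the GC and length correction. The ratio of the sums was not computed after that correction. Leaving the median of the members in place of the mean gave a synthesis minus oxidation difference of -0.36 in PLC/PRF5 and 0.34 in MHCC97H cells, so the near-0 value of MHCC97H depended on the summary used.

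**Figure D3:**
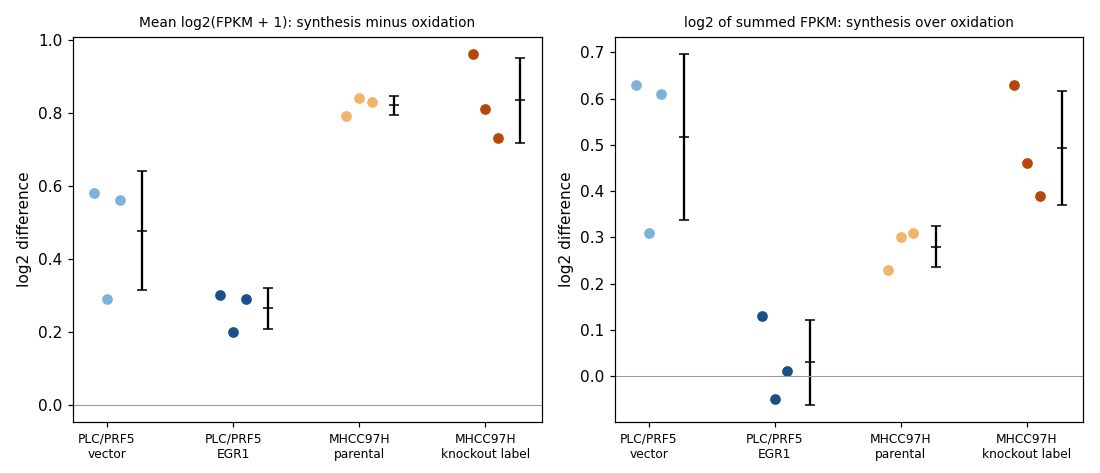
Synthesis against oxidation in each library. The left panel shows the mean log2(FPKM + 1) of 10 synthesis genes minus that of 15 oxidation genes, the right panel the log2 ratio of their summed FPKM, points are libraries and bars are the mean and SD of 3. In the left panel the second vector library (0.29) lies among the EGR1 libraries (0.20 to 0.30) and the MHCC97H groups overlap, whereas in the right panel neither pair of groups overlaps.

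The control groups of the lines differed in most members. Parental MHCC97H and vector PLC/PRF5 cells differ in the line, in the vector and in anything else that was not shared, and these cannot be told apart; both groups also serve as controls above. Of 35 genes tested, 8 were higher and 23 lower in parental MHCC97H, against 79.8% of 12046 genes called, 38.8% higher and 40.9% lower, and the median was -0.41 against -0.02 over all genes. The share of members called was 88.6%. Of the 15 oxidation genes 2 were higher, 12 lower and 1 was not called. All 4 storage genes were lower, but after the GC and length correction 2 of them, DGAT1 (0.02) and PNPLA2 (-0.02), were not called. Of these, ACADS, ECHS1 and DGAT1 lost their call on leaving out single libraries (ACADS any but parental replicate 2, ECHS1 vector replicate 1 or 3 or parental replicate 2, DGAT1 vector replicate 1 or 3 or parental replicate 1 or 2; limma adjusted p from 0.0504 to 0.149), and after the same correction ACADS (0.24) and ECHS1 (0.41) were higher. ECHS1 had a log2 change of 0.10 with quantile normalization.

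Some members differed widely between the lines. FADS2 was higher in parental MHCC97H by 3.43 ± 0.10 on the log2 scale (SE, limma adjusted p = 7.14e-09), with an FPKM of 6.28, 6.01 and 5.47 in the vector libraries, and CD36 by 3.57 ± 0.10 (SE, limma adjusted p = 6.53e-09), with an FPKM of 0.0831, 0.0297 and 0.0494 there. EHHADH was higher by 1.55 (limma adjusted p = 4.68e-07), from the values already given to 4.23, 4.5 and 4.26. ACSL1 was higher by 1.78 (limma adjusted p = 2.51e-07), from 3.37, 3.01 and 3.39 in the vector libraries. In the other direction, ACADM had a log2 change of -2.13 ± 0.15 (SE, limma adjusted p = 2.31e-06), DGAT2 had a log2 change of -1.53, SCD of -1.48, PLIN2 of -1.45 and SLC25A20 of -1.43. ACSL5 (-1.09) was lower as well. FABP1 was listed at 0 in parental MHCC97H cells. PPARA, with an FPKM of 3.76, 3.69 and 3.68 in parental and 2.84, 2.31 and 3.15 in vector cells, was called higher at 0.33 (limma adjusted p = 0.0202), but not without parental replicate 1 or 2 (0.0515 and 0.0564), and was 0.05 after the correction.

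Among the members that change here, the order of levels in PLC/PRF5 vector cells was led by SCD at a mean FPKM of 456 ± 49.9, then FASN at 157 ± 25.3, ECHS1 at 147 ± 2.84 and PLIN2 at 142 ± 0.336 (SD, n = 3), and FASN, ECHS1 and PLIN2 did not differ beyond the spread of FASN. In the libraries labelled knockout FASN led at 231 ± 20.9, ahead of SCD at 163 ± 17.5 and FADS2 at 125 ± 6.55. The activation genes of PLC/PRF5 vector cells were led by ACSL4 (55.6 ± 9.19), whereas ACSL3 led in the libraries labelled knockout (29.5 ± 3.89). Per the labels the libraries underwent a nuclease treatment that lowers abundant transcripts. These orders are therefore of FPKM and may not be those in the cells.

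Further genes of each pathway were counted from wider lists. Of 17 other synthesis genes tested in PLC/PRF5 cells, 2 rose and 4 fell (1 and 9 after the correction), and of 14 in MHCC97H cells 8 were higher and 4 lower, or 5 and 1 after the correction. All-gene shares called, as given above, were 29.6% and 34.7% corrected in PLC/PRF5 and 66.3% and 46.7% corrected in MHCC97H. SLC25A1, the citrate carrier that feeds ACLY, was the largest fall with EGR1 (-0.60 ± 0.08, SE, limma adjusted p = 0.00177) and the largest rise with the knockout label (1.15 ± 0.11, SE, limma adjusted p = 5.77e-05, corrected 0.38). FADS3, a desaturase relative, was the largest rise with EGR1 (0.46), and ME1, the malic enzyme that supplies NADPH, the largest fall with the knockout label (-0.69, corrected -0.17).

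Of 24 other oxidation genes tested in PLC/PRF5 cells, 4 rose and 5 fell (1 and 6 after the correction), and of 23 in MHCC97H cells 11 were higher and 5 lower, or 12 and 1 after the correction. CPT1B, the muscle form of carnitine palmitoyltransferase, rose with EGR1 (0.51) and ACOX2, a peroxisomal oxidase of branched chains and bile acid precursors, fell (-0.68). With the knockout label, ACADSB, an acyl-CoA dehydrogenase for short branched chains, was the largest fall of this list (-0.95, corrected -0.32).

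Of 18 other storage and lipolysis genes tested in PLC/PRF5 cells, 2 rose and 7 fell, and of 19 in MHCC97H cells 10 were higher and 3 lower, with the same counts after the correction. CIDEC, a lipid droplet protein that promotes droplet growth, showed the largest fall of the storage lists with EGR1. Its FPKM was 15.8, 14.2 and 14.4 in the vector libraries and 2.73, 3.13 and 3.29 in the EGR1 libraries, a log2 change of -1.96 ± 0.10 (SE, limma adjusted p = 9.63e-06). In MHCC97H cells CIDEC was 14.6, 18.1 and 18.3 in parental cells and 42.5, 41.2 and 56.3 in those labelled knockout, a log2 change of 1.40 ± 0.14 (SE, limma adjusted p = 6.24e-05, corrected 0.81). GPAT3, a glycerol phosphate acyltransferase, rose with EGR1 (0.83), and GPAM, the mitochondrial one, fell with the knockout label (-0.87, corrected -0.36).

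Of 7 other uptake and binding genes tested in PLC/PRF5 cells limma called 0 (2 had an unadjusted p under 0.05, and 1 was lower after the correction), and of 8 in MHCC97H cells 6 were higher (4 higher and 1 lower after the correction), led by the acyl-CoA binding protein DBI (1.02, corrected 0.57). Of 15 lipid transcription factors and their regulators tested in PLC/PRF5 cells, 2 rose and 3 fell, and of 13 in MHCC97H cells 9 were higher and 3 lower, or 4 and 1 after the correction. SREBF1 had an FPKM of 34.7, 37.2 and 35.3 with the vector and 19.3, 17 and 18.7 with EGR1, a log2 change of -0.93 ± 0.09 (SE, limma adjusted p = 0.000237). Its MHCC97H values were 48.1, 46 and 49.7 in parental cells and 95, 88.4 and 97.8 in those labelled knockout, a log2 change of 0.95 ± 0.08 (SE, limma adjusted p = 3.99e-05), or 0.35 after the correction. MLXIPL, the carbohydrate-responsive factor, was the largest rise of this list with EGR1 (0.45). NR1H2, an oxysterol receptor, was the largest rise with the knockout label (1.03, corrected 0.32) and INSIG2 the largest fall (-0.79, corrected -0.18).

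Gene models overlap for part of the set. In GENCODE release 29, 8 of the 36 genes share exon bases with another gene on the same strand and 13 with a gene on the opposite strand, and 19 share none. FADS1 and FADS2 overlap each other on opposite strands, FADS2 overlaps FEN1 and ACADM overlaps RABGGTB on the same strand, and ACADVL overlaps DLG4 on the opposite strand. Whether strand was used when fragments were assigned is not given in the sources used here, so the values of these genes may hold fragments of their neighbours.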

How the data were processed

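RNA was measured in 12 libraries, 3 in each of 4 groups. Per the labels, oligo(dT)-purified mRNA was made into libraries that underwent DSN treatment (a duplex-specific nuclease lowers abundant transcripts), and the submitters' processing notes name StringTie and hg38; the StringTie version, the aligner and the annotation are not given in the sources used here. The authors deposited FPKM for 22963 gene names, 3031 of them assembled loci. FPKM sums ran from 376335 to 437652. The number of reads is unknown, so counting error and detection limits could not be given.

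FPKM were used as deposited and compared as log2(FPKM + 1), so fold changes of low genes are understated. Each pair of groups was fitted alone with limma 3.58.1 in R 4.3.3, with an intensity trend and without covariates, over genes averaging an FPKM of 1 or more. The difference of the changes was fitted over all 12 libraries. Tests were 2-sided, with Benjamini-Hochberg adjustment over all genes tested and a threshold of 0.05. An exact permutation test of 3 against 3 cannot go below 0.1. The GC and length correction removed a spline with 5 degrees of freedom on each, for 19458 names with a GENCODE release 29 transcript. Synthesis minus oxidation was described without a test. The fits were also run on simulated libraries with noise drawn independently for each gene. These held no GC or length trend, so they do not cover calls made under such a trend.

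The members, the wider lists and the tests were chosen with earlier results of these data known. Values are given in full for members called in both EGR1 comparisons and for the 2 largest called changes per role and comparison; of other genes, EGR1, SREBF1 and the largest called rise and fall per list were named, apart from an item that is not reported here. ALB, TTR, APOB, HNF4A, KRT8, KRT18, CD79A and PTPRC were named as markers. Promoters were those of the 4 members called in both comparisons with the largest summed change and a RefSeq entry, plus SCD. Other alternatives were a pseudocount of 0.1, no filter, a common total, quantile normalization, no trend, 1 fit of all libraries, a block for the replicate number, a stricter threshold of 0.01, a 2-fold minimum, the median over members, and each library left out. Plots were drawn with matplotlib 3.10.9 in Python 3.11.15.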

Additional observations from a re-analysis of the deposited data

How the results depend on the processing

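The depth behind FPKM is unknown, so no value could be weighed by its reads, and 3 libraries a group, clonal for the knockout label, limit what a p-value covers. Of 109 values that answer a comparison under an alternative, 97 stayed and 12 moved by over 1.5 times or, for synthesis minus oxidation, by over the spread. A number of members called could stay while the genes in it changed. With the GC and length correction it went from 21 to 19 for the knockout label, with 7 calls lost and 5 gained. For EGR1 it went from 12 to 18, and both count as stayed. With EGR1 overexpression the number of members called (12) was 7 to 14 on leaving out a library, 7 without EGR1 replicate 2 or 3, 5 at a threshold of 0.01 and 1 with a 2-fold minimum. With the 2-fold minimum it was 1 of 21 for the knockout label, 12 of 31 between the control groups and 7 of 20 for the difference. Synthesis minus oxidation taken as a median over members was -0.36 for EGR1, 0.34 for the knockout label and -0.09 between the control groups, and after the GC and length correction it was 0.10 for the knockout label and 0.20 between the control groups. Of 1560 values of single members under an alternative, 1384 kept their direction and side of the threshold or, for 58 of them, changed sign without passing it in either fit; 114 lost the call, 40 gained it and 22 were reversed.

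The reversed values came from the GC and length correction, alike with and without the replicate block, and from quantile normalization. For EGR1 ACSL4 became -0.29. For the knockout label ELOVL6 became 0.13, ACSL3 0.28, ACADS -0.19, ACAA1 -0.05 and DGAT1 -0.45. Between the control groups ELOVL6 became -0.11, ACADS 0.24, ECHS1 0.41 and DGAT1 0.02. With quantile normalization HADHA became -0.02 for the knockout label and ECHS1 0.10 between the control groups. The cause was not tested beyond the construction of these alternatives.

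Scaling to a common total moved the median of all genes for the knockout label by -0.13 on the log2 scale, to -0.11. The members were then 13 higher and 7 lower in place of 16 and 5, with a median of 0.01, and 41.6% in place of 52.5% of all calls were higher. Quantile normalization gave 3 higher and 11 lower members for EGR1, with 46.0% in place of 64.8% of all calls higher. For the knockout label, the common total ended the calls of ACSL1, CPT1A and HADHA, quantile normalization those of ACLY, FADS1, CPT1A and HADHA, and no filter those of ELOVL6, ACSL3 and ACADM.

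The replicate numbers gave no clear sign that the libraries were paired, but these values cannot settle it. In MHCC97H the replicate 3 pair had the largest correlation of all pairings. There 7987 genes were called with the replicate number as a block, against 7671 without it. The correlation of the deviations of same-numbered libraries was -0.132, 0.136 and -0.076 in PLC/PRF5, 0.032, 0.030 and 0.467 in MHCC97H and -0.393, -0.008 and -0.053 between the control groups. With the replicate number as a block, 10 members were called for EGR1, without HADH and ECHS1. The block also ended the calls of ACADS (limma adjusted p = 0.0762), ECHS1 (0.104) and DGAT1 (0.0791) between the control groups, and of ACSL1 in the difference of the changes (0.0567). Together with the GC and length correction it ended the calls of HADH for EGR1 (0.0567), ACADVL (0.0579) and PNPLA2 (0.0502) for the knockout label and ECI1 (0.053) between the control groups, each of which the correction alone left.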
